A study of Mus musculus with 36 samples.

Results

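The effect of a tooth ligature on epididymal white adipose tissue (eWAT) was examined in wild-type (WT) mice fed a normal diet (ND). The libraries were chosen by their labels as WT and ND: NWL1 to NWL3 were labelled with 2 weeks of experimental periodontitis, and the labels of NW1 to NW3 name no ligature. They are 6 of the 36 eWAT libraries of the series, which has 12 groups of 3 mice. The other 30 libraries are from WT mice fed a 40% or 60% high-fat diet (HFD) and from CCL19-KI mice on all diets, with and without ligature. All 6 mice were male C57BL/6 mice labelled with ND feeding for 10 weeks. They were 14 weeks old at the time of ligation, after 8 weeks of feeding. In ligatured mice, silk thread was tied around an upper molar on both sides of the mouth and left for 2 weeks, and anesthesia or a sham procedure in the mice without ligature is not given in the sources used here. The CCL19-KI mice carry *Ccl19* in the *Adipoq* locus and were bred as a homozygous line apart from the WT mice. All mice of the study were perfused with saline, and lymph nodes were removed from the eWAT before the RNA was extracted. The series description mentions the ligature for every group, and the labels were followed here.

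Periodontitis is an inflammation of the tissue around the teeth that ends in loss of alveolar bone, and a ligature induces it by retaining oral bacteria at the gum line. White adipocytes store triglyceride, which they take up from the blood or make by de novo lipogenesis, and they release adipokines such as leptin and adiponectin. Sterol and fatty acid synthesis genes are induced by the SREBP transcription factors, and genes such as *Mest* and *Sfrp5* are known to follow the expansion of fat mass. The fat pad is wrapped in mesothelium and lies beside the epididymis, and the liver is the usual source of albumin and of most plasma proteins.

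The table gives read counts scaled to library size with edgeR, here called normalized CPM. The 6 libraries held 11962228 to 20258438 reads, and 3 reads, the floor for calling a gene detected, were worth 0.150 to 0.232 normalized CPM. Adipocyte markers were high in all 6: the summed level of 12 markers was 28626 to 53008 in NW and 40148 to 44178 in NWL. Some libraries stood apart from their labels or from their group. In NW2, *Ccl19* was 19.2 and the predicted gene *Gm2564* was 41.9, whereas in the other 5 libraries *Ccl19* was 0.507 to 4.51 and *Gm2564* was 0. In the CCL19-KI libraries other than the lowest, *Gm2564* was 11.7 to 108, and in the 12 WT libraries of the HFD groups it was at most 0.160. NW2 also held 7388 normalized CPM of 13 epididymal epithelium genes, against 4.68 and 90.2 in NW1 and NW3 and 0.760 to 4.88 in NWL, and 2981 of 12 smooth muscle genes against 264 to 573 in the other 5. In NWL1 and NWL2, as in NW2, *Naip6* (3.59 and 4.56) and *Srp54b* (45.6 and 44.4) lay near or within the range of the CCL19-KI libraries other than the lowest (4.60 to 7.74 and 38.7 to 61.9), whereas their *Ccl19* and *Gm2564* were those of WT libraries. In NWL3, NW1 and NW3, *Naip6* was 0.0544 to 0.310, within or near the 0 to 0.316 of the WT libraries of the HFD groups. NW1 stood apart by macrophage genes, with *Gpnmb* at 275 and *Mmp12* at 207. The main lists are therefore given with all 6 libraries and without NW2. NWL3 alone against NW is given for some lists, in a fit where the spread comes from the NW libraries only, so that its medians and counts describe 1 ligatured mouse.

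**Figure D1:**
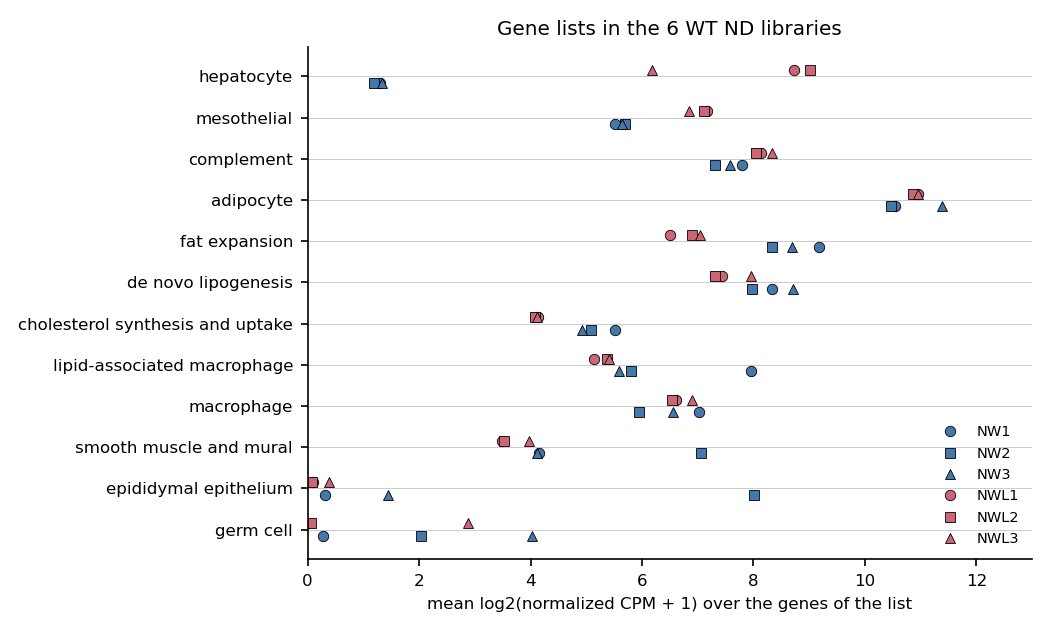
Mean log2(normalized CPM + 1) over the genes of 12 lists (x axis) in each of the 6 WT ND libraries; blue, no ligature (NW); red, ligature (NWL); circle, square and triangle, replicates 1, 2 and 3. The hepatocyte list was at 1.18 to 1.33 in NW and at 6.18 to 9.02 in NWL, the mesothelial list was higher and the fat expansion and cholesterol lists were lower in all 3 NWL libraries, and NW2 stood apart in the smooth muscle and epididymal lists.

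To see how many genes differed with ligature, limma was run on the 14970 genes that reached 1 normalized CPM in 3 or more of the 6 libraries. Differentially expressed genes (DEGs) were called by the criteria of the study: the unadjusted p was no higher than 0.05, and the ratio was 1.5 or more, or 0.67 or less. By these criteria, 1312 genes (8.76% of those tested) were higher and 1232 (8.23%) were lower in ligatured mice. After Benjamini-Hochberg adjustment over all genes, 469 (3.13%) had an adjusted p under 0.05 in limma, 333 of them higher. The 3 values of NWL lay wholly above or below the 3 values of NW in 30.4% of the genes tested. Without NW2, 1579 of 14580 genes (10.8%) were higher and 1679 (11.5%) lower, and 2136 of the 2544 DEGs of all 6 libraries were DEGs in the same direction. The adjusted count depended on single libraries: it was 0 without NWL1 and 0 without NWL2 (with 1572 and 1570 DEGs by the unadjusted criteria), 2 without NW1 or NW3, 790 without NW2 and 725 without NWL3. With 3 mice against 3, an exact permutation test cannot give a p below 0.1, so single genes are given with limma's log2 fold change ± SE (3 libraries a group) in parentheses, always NWL minus NW. Of the genes tested, 383 had at least 1 normalized CPM in 1 group only and so passed the filter through that group, 285 of them through NWL.

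The largest rises were in genes of liver cells. Taking DEGs that did not overlap between groups and were also DEGs without NW2, the 10 that rose most included *Alb* (albumin), *Apob* and *Apoa1* (lipoprotein proteins), *Cps1* (the entry enzyme of the urea cycle), *Mat1a* (methionine metabolism), *Cyp3a11* (drug metabolism) and the secreted protease inhibitors *Mug1*, *Serpina1c* and *Serpina3k*. *Alb* (chr5:90460897-90476602, plus strand, GRCm38) was 5.55, 7.85 and 13.4 normalized CPM in NW1 to NW3 and 4731, 5423 and 718 in NWL1 to NWL3, a log2 fold change of 8.13 ± 0.78 with an adjusted p of 0.0173 in limma. *Apob* was 0.979, 0.668 and 0.450 in NW and 1797, 1799 and 153 in NWL (8.88 ± 0.93). In NW, *Cyp3a11* had at most 3 reads in each library, and against that floor it was at least 2694-fold higher in NWL, at 745, 556 and 49.1. The groups did not overlap for these genes, and NWL3 was the lowest of the 3 ligatured mice for each. All 14 genes of the hepatocyte list were higher and none overlapped, beside 8.76% of all genes higher and 30.4% without overlap, but 9 of the 14 passed the filter through NWL only and their count is a description. Their summed level was 133 to 1542 in NW, most of it *Cyp2e1* (116, 1109 and 1525), and 4595 to 16028 in NWL, and their median log2 fold change was 6.99, or 6.84 without NW2, beside -0.04 over all genes tested. The liver genes *Mup3*, *Mup7*, *Mup14*, *Mup20* and the *Serpina1* copies belong to families of near-identical genes, and how the reads were shared among them is uncertain.

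Across the series, low hepatocyte gene levels were less common than high ones. The mean log2(normalized CPM + 1) over the hepatocyte list was under 2 in 6 of the 36 libraries: the 3 NW libraries, 2 ligatured CCL19-KI libraries on an ND and 1 library labelled CCL19-KI, 60% HFD, without ligature, whose *Ccl19* (0.687) and *Gm2564* (0) were at WT levels. In the other 30 it was 4.83 to 10.9. The list was not higher with ligature in the other groups compared: its median log2 fold change was -2.28 in WT mice fed a 40% HFD, -0.26 in WT mice fed a 60% HFD and -5.53 in CCL19-KI ND mice. The hepatocyte level moved with the groups, and a fit of all 36 libraries with the mean level of the list as a covariate was added after the data were seen. In that fit, 1502 of 17852 genes (8.41%) were higher and 2156 (12.1%) lower with ligature in WT ND mice, and the list itself had a median of 0.17, which follows from the use of its own mean as the covariate. *Fgb*, a member of the list, and *Mat1a* were -0.17 ± 0.27 and -0.22 ± 0.61 in that fit, within the SE of 0. Whether the liver transcripts in these libraries came from hepatocytes was not tested. This covariate fit is given below beside the lists it bears on, and the part of the liver transcripts in the other results was not tested. The acute-phase list, of proteins made largely in the liver, had 6 DEGs of 13 tested, all higher, with a median of 1.27. Of all genes tested, 8.76% were higher. Among the 6 were the fibrinogen genes *Fga*, *Fgb* and *Fgg*, hemopexin (*Hpx*) and *Itih4*. In the covariate fit no gene of the list was higher, 5 were lower and the median was -1.13, the opposite direction. Of the 13, 2 passed the filter through 1 group only. Without NW2 6 rose and 5 fell, beside 10.8% of all genes higher and 11.5% lower. Its *Saa3*, serum amyloid A made outside the liver too, was 203, 4.23 and 13.6 in NW and 1.86, 3.80 and 4.18 in NWL and was not a DEG with 6 libraries (-2.59 ± 1.24), but fell without NW2 (-3.72 ± 1.05).

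**Figure D2:**
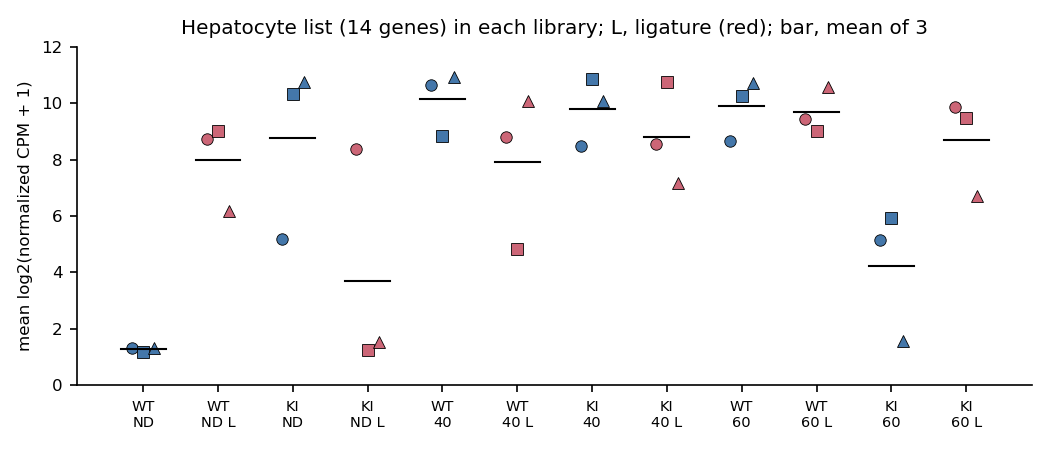
Mean log2(normalized CPM + 1) over the 14 hepatocyte genes (y axis) in each of the 36 libraries by group; blue, no ligature; red, ligature (L); circle, square and triangle, replicates 1, 2 and 3; bar, mean of 3. The 3 WT ND libraries without ligature lie between 1.18 and 1.33, and 30 of the 36 libraries lie at 4.83 or above.

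The largest falls included genes that follow the expansion of fat. *Mest* (chr6:30723547-30748465, plus strand, GRCm38), a gene of the alpha/beta hydrolase family that rises as adipocytes enlarge, was 1315, 389 and 613 in NW and 28.1, 51.3 and 38.8 in NWL (-4.11 ± 0.45, adjusted p = 0.0173 in limma). *Sfrp5*, a secreted Wnt inhibitor of adipocytes, was 199, 125 and 96.3 in NW and 3.45, 17.2 and 8.20 in NWL (-3.89 ± 0.52, adjusted p = 0.0213 in limma). Every ligatured mouse lay below every mouse without ligature for both genes. Both were named from DEGs without overlap by size of change, so the gap follows from that choice. Of all genes tested, 30.4% did not overlap. Leptin (*Lep*), the adipokine that reports fat mass, was 4217, 809 and 1513 in NW and 247, 411 and 523 in NWL (-2.20 ± 0.61), with NW1 far above the rest. *Npr3*, the clearance receptor of natriuretic peptides, was 1768, 1009 and 1577 against 143, 232 and 756. *Fgf13*, *Trarg1* (which takes part in insulin-driven transport of the glucose transporter), the caveola genes *Cav1* and *Cavin1*, and *Bmp3* fell too, so that 9 of 11 genes of the fat expansion list fell and none rose, beside 8.23% of all genes lower, with a median of -1.29. Without NW2, 8 fell, beside 11.5% of all genes, and the median was -1.56. In the covariate fit 3 fell, *Mest*, *Sfrp5* and *Fgf13*, with a median of -0.88, and in NWL3 alone against NW the median was -1.33. *Nnat* (162, 549 and 593 against 194, 233 and 399) and *Peg3* overlapped between the groups. In bulk tissue, fewer cells of a type and less RNA per cell cannot be told apart.

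Other named falls were of genes outside this list. *Oxtr*, the oxytocin receptor, was 237, 77.0 and 64.5 in NW and 4.34, 5.07 and 19.1 in NWL (-3.62 ± 0.66). *Gpc1*, a heparan sulfate proteoglycan, was 68.5, 73.8 and 66.5 against 16.3, 15.9 and 19.9 (-1.95 ± 0.14, adjusted p = 0.0125 in limma), and *Hr*, a nuclear corepressor, was 72.9, 85.0 and 79.2 against 25.4, 24.7 and 24.1 (-1.63 ± 0.12). The 3 values of each group lay close together for *Gpc1* and *Hr*, but both were named for a small p in these libraries. That choice favours genes with little spread. In the covariate fit *Gpc1* was lower (-1.39 ± 0.49) and *Hr* was not a DEG (-0.78 ± 0.48). *Ncan* (-3.14 ± 0.68) and the unnamed transcripts *1700047G03Rik*, *Gm49450* and *D430019H16Rik* also fell. *Crisp1*, a secretory gene of the epididymis, had the largest fitted fall among the genes named by size (-5.59 ± 1.97), at 2.83, 1532 and 58.3 in NW and 0.0690, 0.0507 and 1.78 in NWL. It was highest in NW2, the library with the other epididymal genes, and was still lower in NWL without NW2 (-3.37 ± 1.14).

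The adipocyte list as a whole did not move in a common direction. Of its 12 genes, *Cfd* (adipsin, a complement protease secreted by adipocytes) rose and *Lep* fell, and the median was 0.16. *Cfd* was 333, 2804 and 4220.1 in NW and 10552, 8444 and 7249.6 in NWL, and its low value was that of NW1. Adiponectin (*Adipoq*) was 2103, 751 and 3115 in NW and 3230.4, 3021 and 2782 in NWL, with overlap, and its lowest value was that of NW2. *Fabp4* (9344, 4187 and 8458 against 7227, 7767 and 6803) and perilipin 1 (*Plin1*, 1136, 1197 and 2028 against 764, 687 and 1148) were not DEGs. Of other adipokines, *Nampt* rose (0.77 ± 0.17). Among adipocyte transcription factors, *Cebpd* rose from 43.1, 44.1 and 35.4 to 99.98, 118 and 87.2 (1.29 ± 0.16, adjusted p = 0.0174 in limma), *Zfp423*, a determinant of white adipocyte identity, fell (-1.23 ± 0.21), and *Pparg* was not a DEG (159, 107 and 214 against 294, 210.4 and 136).

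**Figure D3:**
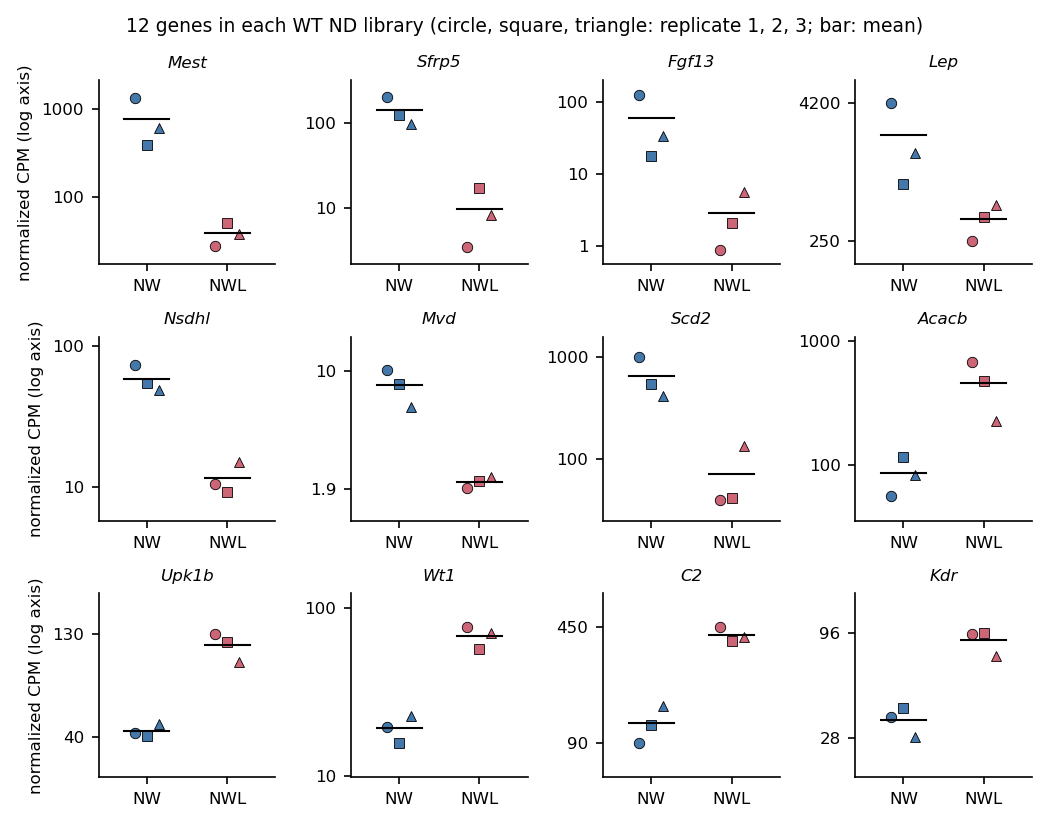
Normalized CPM (y axes, log scale, one range per gene) of 12 genes in each WT ND library; circle, square and triangle, replicates 1, 2 and 3 of NW (blue) and NWL (red); bar, mean of 3. In each of these 12 genes the NW and NWL points do not overlap. All 12 were picked from the DEGs, and 30.4% of all genes tested did not overlap.

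Cholesterol synthesis genes fell together. The list holds enzymes from acetyl units to cholesterol with genes of uptake and regulation, and 13 of 20 genes tested fell and none rose, beside the 8.23% of all genes that fell. The median log2 fold change was -1.16. *Nsdhl* (chrX:72918557-72958514, plus strand, GRCm38), an enzyme of sterol demethylation, was 72.7, 54.5 and 48.3 in NW and 10.4, 9.12 and 14.9 in NWL (-2.26 ± 0.23, adjusted p = 0.0173 in limma). *Fdps*, which makes farnesyl diphosphate, was 63.6, 45.5 and 27.7 against 5.72, 5.88 and 13.8 (-2.33 ± 0.41, adjusted p = 0.0381 in limma). *Mvd*, which completes the mevalonate steps, was 10.2, 8.29 and 6.00 against 1.93, 2.13 and 2.24 (-1.54 ± 0.22, adjusted p = 0.0247 in limma). In all of them each ligatured mouse lay below each mouse without ligature. *Insig1*, the sterol-sensing anchor of SREBP that is itself an SREBP target, was 595, 131 and 231 against 67.4, 54.2 and 69.3 (-2.04 ± 0.51). *Hmgcs1*, which condenses acetyl units into HMG-CoA, was 568, 221 and 387 against 148, 127 and 116 (-1.48 ± 0.33), and *Lss*, which closes the sterol rings, was 76.9, 37.7 and 33.1 against 15.6, 14.0 and 17.3 (-1.5 ± 0.31). NW1 was the highest of the NW libraries for these 6 genes. *Sqle*, *Dhcr7*, *Idi1*, *Mvk*, *Msmo1*, *Sc5d* and *Cyp51* fell as well, by 1.87 (*Sqle*) to 0.75 (*Cyp51*) on the log2 scale. None of the 13 overlapped between groups, beside 30.4% of all genes tested. They were picked as DEGs, however, and most DEGs did not overlap (1948 of the 2136 also called without NW2).

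Of the 7 genes tested that were not DEGs, the regulator *Srebf2* was 49.7, 94.7 and 55.2 in NW and 48.4, 49.5 and 51.7 in NWL, with its highest value in NW2. *Fdft1*, which makes squalene, was 27.3, 86.4 and 49.9 against 54.8, 51.6 and 39.5, and *Hsd17b7* was 20.7, 14.3 and 10.8 against 11.7, 14.1 and 6.73. The groups overlapped for these genes and for *Pmvk*. Without NW2, 14 fell with a median of -1.34, and *Pmvk* was the added gene. With the hepatocyte level as a covariate, 18 of 21 fell with a median of -1.61, including *Hsd17b7* (-1.66 ± 0.44). In NWL3 alone against NW, the median was -1.13. The ligature medians of the list were -0.29 in WT mice fed a 40% HFD, -0.39 in those fed a 60% HFD and -0.06 in CCL19-KI ND mice.

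As 13 genes of 1 pathway fell together, the sequence upstream of their starts was looked at for the letters bound by NF-Y (CCAAT) and by SREBP (TCACNCCAC, a common form of the sterol response element), on both strands. NF-Y and SREBP are known to act together on sterol genes. In RefSeq (GRCm38.p6), 14 of the 21 list genes had a promoter entry, and CCAAT was found within 250 bases upstream in all 14, among them all 11 genes with an entry that fell, beside 37.5% of 27025 genes. TCACNCCAC was found in 1 of the 14, *Hmgcs1*, beside 1.22% of all genes, and no match says only that these letters are not in the window. The 150 bases before the start are shown for the 4 genes with the largest falls that have a single entry and a match in these bases, 5′ to 3′ on the strand of the gene, with matches in capitals (ATTGG is CCAAT on the other strand). They are at chrX:72918371-72918520 (*Nsdhl*, plus strand), chr8:122443423-122443572 (*Mvd*, minus strand), chr10:76531455-76531604 (*Lss*, plus strand) and chr13:119690201-119690350 (*Hmgcs1*, plus strand).
Nsdhl: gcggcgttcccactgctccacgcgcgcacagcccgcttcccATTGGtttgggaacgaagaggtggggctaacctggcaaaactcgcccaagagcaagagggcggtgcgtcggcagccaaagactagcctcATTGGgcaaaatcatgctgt
Mvd: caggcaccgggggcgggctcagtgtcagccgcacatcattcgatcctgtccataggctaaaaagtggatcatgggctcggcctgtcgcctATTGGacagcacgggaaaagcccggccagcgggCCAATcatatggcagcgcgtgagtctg
Lss: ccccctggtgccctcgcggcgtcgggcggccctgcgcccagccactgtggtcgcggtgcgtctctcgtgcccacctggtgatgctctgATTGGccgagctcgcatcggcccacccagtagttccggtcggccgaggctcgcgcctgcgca
Hmgcs1: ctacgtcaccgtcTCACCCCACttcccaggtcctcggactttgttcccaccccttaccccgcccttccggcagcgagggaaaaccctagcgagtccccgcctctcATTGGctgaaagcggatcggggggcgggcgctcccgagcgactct
*Nsdhl* and *Mvd* hold 2 CCAAT matches each in these bases, and *Lss* and *Hmgcs1* hold 1. A match is a description of the sequence, and binding was not measured.

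De novo lipogenesis, by which adipocytes turn acetyl units into fatty acids, had 7 of 16 genes lower and 1 higher, beside 8.23% of all genes lower and 8.76% higher, with a median of -1.12. Without NW2, 9 fell and the median was -1.36. *Scd2*, a stearoyl-CoA desaturase, was 987, 549.6 and 416 in NW and 40.2, 42.0 and 136 in NWL (-3.29 ± 0.53, adjusted p = 0.0315 in limma). *Elovl6*, which elongates palmitate, was 39.7, 94.2 and 64.4 against 14.2, 17.1 and 20.9 (-1.80 ± 0.32, adjusted p = 0.0382 in limma). *Acly*, which supplies acetyl-CoA from citrate, was 388, 477 and 622 against 134, 125 and 279.5 (-1.53 ± 0.34). The groups did not overlap for these 3 genes, and NWL3 was the highest of the ligatured mice in each. These 3 were picked as DEGs, however, and 1948 of the 2136 DEGs also called without NW2 did not overlap, beside 30.4% of all genes tested. *Pgd*, *Acss2*, the citrate carrier *Slc25a1* and the regulator *Srebf1* fell too. Fatty acid synthase (*Fasn*) was 2658, 1394 and 7229 in NW and 413, 460.0 and 2797 in NWL. It overlapped and was not a DEG with 6 libraries (-1.88 ± 0.90), and it fell without NW2 (-2.43 ± 0.93). *Scd1*, the main desaturase of adipocytes and liver, was 25198, 29027 and 24357 against 21879, 22509.9 and 17247 and was not a DEG.

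*Acacb*, the mitochondrial acetyl-CoA carboxylase whose product restrains fatty acid oxidation, moved the other way. It was 56.9, 117 and 82.6 in NW and 674, 471 and 224 in NWL (2.32 ± 0.44, adjusted p = 0.0454 in limma). Its rise was also found in the covariate fit (2.13 ± 0.65). Of the list, 7 fell and 1 rose in that fit, and in NWL3 alone against NW the median was -0.53. The uptake and triglyceride synthesis list had 4 of 17 genes lower and 2 higher, beside 8.23% of all genes lower and 8.76% higher, with a median of -0.05. *Dgat2*, the last step of triglyceride synthesis, was 1806, 797 and 1874 against 245, 259.7 and 493 (-2.14 ± 0.43). *Mogat2*, *Agpat2* and *Fabp5* fell with it, whereas *Slc27a1* and *Gpam*, the initial acyltransferase, rose (0.77 ± 0.27 for *Gpam*). *Mgll*, which releases the last fatty acid from monoglycerides, and *Aqp7*, the glycerol channel, fell (-1.33 ± 0.34 and -0.87 ± 0.22), whereas the lipases *Pnpla2* and *Lipe* were not DEGs. They were the 2 DEGs of 15 lipolysis and lipid droplet genes tested, with a list median of -0.12.

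**Figure D4:**
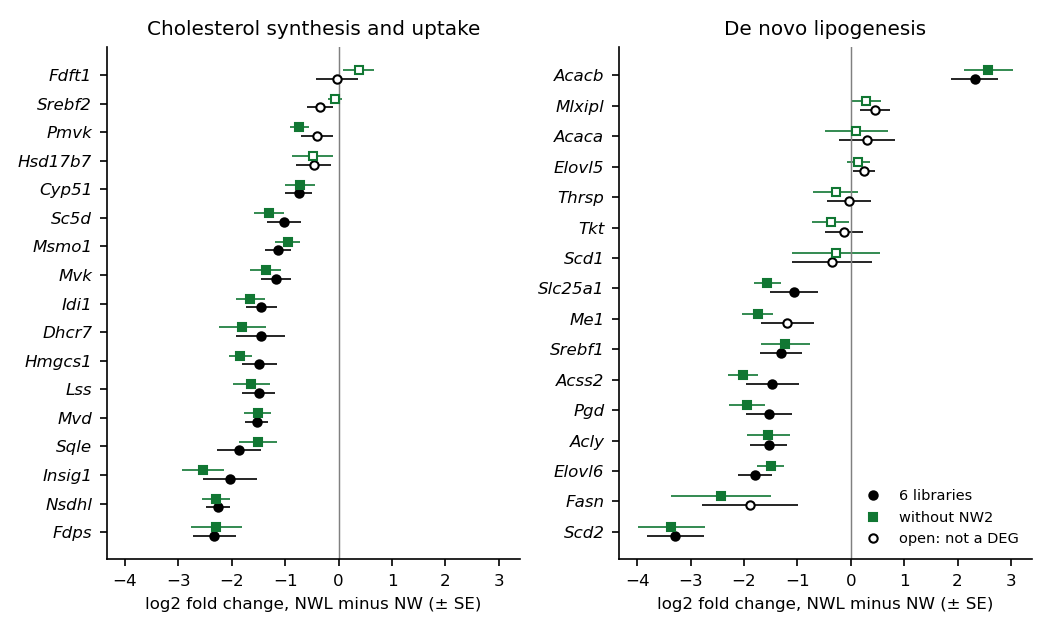
Log2 fold change (x axis, NWL minus NW, ± SE) of tested genes of the cholesterol list (left, 17 of 20 shown) and the de novo lipogenesis list (right); circles, 6 libraries; squares, without NW2; filled, DEG; open, not a DEG. In the cholesterol list 13 genes fell with 6 libraries and 14 without NW2, and *Acacb* is the only gene of the lipogenesis list that rose.

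Mesothelial genes rose. The mesothelium is the flat cell layer that covers the fat pad, and 10 of 12 of its marker genes rose and none fell, beside the 8.76% of all genes that rose, with a median of 1.43. *Wt1* (chr2:105126529-105173616, plus strand, GRCm38), a transcription factor of mesothelium, was 19.5, 15.7 and 22.6 in NW and 76.5, 57.2 and 70.9 in NWL (1.77 ± 0.18, adjusted p = 0.0173 in limma). *Upk1b*, a tetraspanin of the mesothelial surface, was 41.8, 40.2 and 46.3 against 129.8, 118 and 94.5 (1.39 ± 0.15, adjusted p = 0.0173 in limma). *Upk3b* was 200.2, 111 and 252 against 575, 536 and 522 (1.61 ± 0.30), and mesothelin (*Msln*) was 85.9, 44.3 and 93.3 against 194, 228 and 149.8 (1.40 ± 0.31). The 10 genes that rose were these 4 with *Lrrn4*, *Muc16*, *Bnc1*, *Gpm6a*, *Cldn15* and *Krt19*. The 2 groups did not overlap in any of the 10, beside 30.4% of all genes tested. The 10 were picked as DEGs, however, and 1948 of the 2136 DEGs also called without NW2 did not overlap either. The keratins *Krt8* and *Krt18*, which many epithelia express, were highest in NW2, at 90.5 and 125, and were not DEGs with 6 libraries. Without NW2, all 12 rose, with a median of 1.34. In the covariate fit 10 rose, with a median of 2.03, and in NWL3 alone against NW the median was 1.24. The summed level of the list was 779 to 895 in NW and 1931 to 2322 in NWL.

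Complement genes rose in part. Of 17 genes tested, 7 rose and none fell, beside 8.76% of all genes higher, with a median of 0.20. Without NW2, 7 rose, beside 10.8% of all genes, and the median was 0.09. *C2* (chr17:34862604-34898265, minus strand, GRCm38), of the classical pathway, was 89.9, 117 and 150.1 in NW and 449, 372 and 393 in NWL (1.79 ± 0.21, adjusted p = 0.0173 in limma). *C3*, the central component, was 3299, 1254 and 1737 against 7968, 5798 and 5216 (1.69 ± 0.45). *C1ra*, a protease of the C1 complex, was 154, 128 and 134 against 416, 340.0 and 331 (1.38 ± 0.15). The groups did not overlap for any of them, but they were picked as DEGs, most of which did not overlap. Of all genes tested, 30.4% did not overlap. *C1s1* and *Serping1* rose too, with *Cfd* described above, whereas *C1qa* (174, 74.3 and 116 against 94.3, 109 and 154) and *C1qb*, made by macrophages, were not DEGs. In the covariate fit, 4 of 17 were higher, beside 8.41% of all genes, with a median of 0.32. *C3* and *Serping1* were among the genes that were no longer higher.

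Several genes of vessels and progenitors had higher levels in all ligatured mice. *Kdr*, the main VEGF receptor of endothelium, was 36.1, 40.0 and 28.4 in NW and 95.2, 96.1 and 73.8 in NWL (1.32 ± 0.18, adjusted p = 0.0218 in limma). *Esam*, an adhesion molecule of endothelial junctions, was 11.8, 12.6 and 13.9 against 38.1, 35.5 and 24.9 (1.28 ± 0.19, adjusted p = 0.0249 in limma). *Vegfa* rose (1.23 ± 0.39), but *Cdh5*, *Angpt2* and *Aplnr* fell and *Pecam1* was 16.7, 29.0 and 15.9 against 15.5, 15.7 and 19.3. The list of 15 thus had 3 higher and 3 lower, with a median of -0.33, beside 8.76% of all genes higher and 8.23% lower. Without NW2, the same 3 were higher and none was lower, with a median of -0.05, beside 10.8% of all genes higher and 11.5% lower. *Dpp4*, a marker of early progenitors in fat, was 103, 87.1 and 93.9 against 277, 233 and 201 (1.31 ± 0.16), and decorin (*Dcn*) was 1337, 1291 and 1241 against 3373, 2474 and 2927 (1.17 ± 0.24). Of 15 progenitor genes, these and *Cd34* rose and *Col15a1* fell, with a median of 0.16, and without NW2 3 rose and 2 fell, with a median of 0.40. The shares of all genes are those given for the endothelial list. *Npr1*, the guanylyl cyclase receptor of atrial natriuretic peptide, was 39.9, 32.4 and 34.5 against 106, 107 and 100.2 (1.53 ± 0.12, adjusted p = 0.0173 in limma), opposite in direction to the clearance receptor *Npr3*. *Ap4e1*, a subunit of an adaptor complex of vesicle transport, was 19.7, 15.3 and 19.4 against 63.3, 64.7 and 52.4 (1.68 ± 0.16). Neither *Npr1* nor *Ap4e1* overlapped between groups, but both were named for a small p in these libraries, which favours groups without overlap. Both were also higher in the covariate fit.

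Collagen, proliferation and macrophage genes were lower in part, and the counts changed without NW1 or NW2. Of 17 collagen genes, 5 fell with a median of -0.64, beside 8.23% of all genes lower, and *Col15a1*, a basement membrane collagen, was 629, 469 and 857 in NW and 61.0, 70.5 and 321 in NWL (-2.49 ± 0.63). Without NW2, 10 fell with a median of -0.92, beside 11.5% of all genes, without NW1 2 fell and 1 rose, and in the covariate fit none was a DEG and the median was -0.03. *Col1a1* and *Col3a1*, the main fibrillar collagens, were 844, 569 and 517 against 813, 488 and 1092 and 3093, 1104 and 2071 against 2039, 1285 and 3216, with overlap. Of 15 proliferation genes, 7 fell, among them *Mki67* (41.3, 12.7 and 25.2 against 6.90, 10.1 and 13.1) and *Top2a*, with a median of -0.73, beside 8.23% of all genes lower. Of the list, 8 fell without NW2 (-0.90), 3 without NW3 (-0.75) and 2 without NW1 (-0.68). In the covariate fit 6 of 17 fell, with a median of -1.02, beside 12.1% of all genes. Of 13 lipid-associated macrophage genes, *Atp6v0d2*, *Fabp5* and *Itgax* fell, with a median of -0.52, beside 8.23% of all genes lower. In the covariate fit 5 of 14 fell, with a median of -1.29, beside 12.1% of all genes. *Itgax* (CD11c) was 61.7, 8.85 and 8.60 in NW and 0.827, 2.94 and 5.18 in NWL, and *Trem2* was 76.5, 8.63 and 6.65 against 12.8, 10.9 and 14.8 and was not a DEG. NW1 held the highest level of both, and without NW1 1 gene of the list fell and 1 rose, with a median of -0.33. Without NW2 5 fell, with a median of -0.89, and without NW3 3 fell, with a median of -0.99. The part of the macrophage genes of NW1 in the other falls was not tested. Of the general macrophage list, the scavenger receptor *Cd163* rose (143, 91.8 and 123 against 352, 227 and 229), as did *Lyve1*, whereas *Adgre1* and *Cd68* were not DEGs. Mural genes fell in 4 of 11, *Acta2*, *Cspg4*, *Notch3* and *Rgs5*, with a median of -1.33, beside 8.23% of all genes lower. Without NW2 the same 4 of 9 fell, with a median of -0.70, beside 11.5% of all genes. In the covariate fit 1 of 12 fell, beside 12.1% of all genes. *Cspg4* was 40.6, 37.2 and 45.3 against 19.2, 16.6 and 19.7 (-1.11 ± 0.14), and *Myh11* was 562 in NW2 against 6.14 to 16.6 elsewhere.

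Transcripts of several inflammatory cytokines were low. *Tnf* was 1.69, 0.0557 and 0.400 in NW and 0, 0.203 and 0.155 in NWL, *Il1b* was 0.326, 0.668 and 0.150 against 0.345, 0.203 and 0.232, and neither they nor *Il6* reached the filter. *Ccl2*, a monocyte chemoattractant, was 11.1, 1.95 and 6.30 against 0.138, 0.963 and 4.57, with overlap, and was not a DEG with 6 libraries. It was lower without NW2 (-2.02 ± 0.67). Of the 9 CC chemokines tested, none was a DEG with 6 libraries. In the list of ligands, receptors and targets of the TNF, IL-1 and IL-6 families, 5 of 10 genes tested rose and none fell, beside 8.76% of all genes higher: the cytokine *Il18*, the receptors *Il1rap*, *Il6ra* and *Il6st* (gp130), and *Socs3*, which is induced by IL-6. *Il18* was 5.76, 3.28 and 7.05 in NW and 11.7, 13.3 and 11.8 in NWL (1.10 ± 0.26). *Il6st* was 371, 348 and 339.7 against 632, 508 and 479 (0.60 ± 0.16). Without NW2, *Il18*, *Il1rap* and *Il6st* were higher, beside 10.8% of all genes, and *Il6ra* and *Socs3* were no longer DEGs. In the covariate fit, 3 of 14 genes of the list were higher and 1 lower, with a median of 0.22, beside 0.51 with 6 libraries. *Nfkbiz*, a nuclear regulator of NF-kB that is induced by it, was 14.2, 11.2 and 10.8 against 30.1, 28.2 and 32.8 (1.27 ± 0.16, adjusted p = 0.0174 in limma), whereas *Tnfaip3*, another target, fell (-0.87 ± 0.20). *Lbp*, the LPS-binding protein, fell from 409, 175 and 212 to 35.7, 45.5 and 96.3 (-2.18 ± 0.45), and its coreceptor *Cd14* rose (0.72 ± 0.21).

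Osteopontin (*Spp1*), a matrix protein of macrophages and bone, was 12.9, 4.62 and 0.950 in NW and 0.690, 0.709 and 0.310 in NWL. It did not reach the filter, and its high value was that of NW1. *Atp6v0d2*, a proton pump subunit of macrophages and osteoclasts, was 103, 28.1 and 2.05 against 1.31, 1.62 and 1.70, so that it fell with 6 libraries (-3.05 ± 1.16) but not without NW2, where 1 NW library was close to NWL. *Gpnmb* was 275, 33.3 and 6.95 against 28.9, 28.0 and 33.3 and was not a DEG. Of factors that act on osteoclasts, *Tnfrsf11b* (osteoprotegerin, the decoy receptor of RANKL) was 19.6, 8.18 and 28.2 against 40.6, 36.7 and 44.7 and rose (1.23 ± 0.40), and *Tnfsf11* (RANKL) was at most 0.350 in any of the 6 libraries and was not tested. *Oasl2* was the interferon-stimulated gene of 22 that rose (27.2, 23.6 and 23.8 against 73.2, 61.8 and 87.0, 1.52 ± 0.16), and *Mx1* fell. Lactoferrin (*Ltf*) fell from 5.98, 15.8 and 5.55 to 0.0690, 0 and 0.696, and it was not tested without NW2.

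Among genes with daily or hormonal rhythms, 3 of 18 clock genes rose, among them *Per1* and *Per2*, as did *Per1*, *Klf9*, *Dusp1* and *Hsd11b1* of 14 glucocorticoid targets, with none lower in either list. Of all genes tested, 8.76% were higher and 8.23% lower. *Hsd11b1*, which makes active glucocorticoid within cells, was 54.2, 68.1 and 85.2 against 219, 186 and 110.2 (1.27 ± 0.29). NWL3 was the lowest ligatured mouse for *Per1* (142, 112 and 75.6), *Klf9* and *Hsd11b1*. The median of the glucocorticoid list was 0.74 with 6 libraries, 1.06 without NWL3 and -0.03 in NWL3 alone against NW. Without NW2, 4 clock genes rose, and 4 glucocorticoid targets rose and 1 fell, beside 10.8% of all genes higher and 11.5% lower. In the covariate fit, no clock gene rose and 3 fell, and of the glucocorticoid targets *Dusp1* rose and 1 fell. The shares of all genes in that fit were 8.41% higher and 12.1% lower. The time of day at which tissue was taken is not given in the sources used here. Across all 59 lists, 10 had no DEG, among them the MHC class II, T and NK cell, mitochondrially encoded and cytosolic ribosomal protein lists.

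Whether the ligature effect in WT ND mice differed from that in 3 other settings (WT with a 40% HFD, WT with a 60% HFD, CCL19-KI with an ND) was tested as a difference of effects. These 3 tests share the NW and NWL libraries and are therefore not independent. In the other groups on their own, 410 genes were higher and 547 lower in WT mice fed a 40% HFD, 102 and 114 in WT mice fed a 60% HFD, and 861 and 500 in CCL19-KI ND mice, with no adjusted p under 0.05 in limma in any of the 3 and with 1122, 694 and 1895 genes at an unadjusted p under 0.05. The effect in WT mice fed a 60% HFD differed from that in WT ND mice for 127 of 15896 genes (0.799%, adjusted p under 0.05 in limma). That count was 68 without NW2, 358 with edgeR, and 0 without NWL1, without NWL2, or with all 36 libraries in the fit. In CCL19-KI ND mice it differed for 12 of 16671 genes (0.072%), or 7 without NW2 and 6 with edgeR. In WT mice fed a 40% HFD it differed for 0 of 16059 genes (0%), with 3100 at an unadjusted p under 0.05, 1 by edgeR and 4 without NW2.

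Of the hepatocyte list, 12 of 14 genes differed between the 60% HFD and the ND, or 8 without NW2, and the list was at 8.68 or above in all 6 WT libraries fed the 60% HFD. *Mest* had a ligature effect of -4.11 ± 0.45 in WT ND mice and -0.67 ± 0.22 in WT mice fed a 60% HFD, and the difference was 3.45 ± 0.54 (adjusted p = 0.0248 in limma). For *Sfrp5*, the effects were -3.89 ± 0.52 and -0.24 ± 0.20, and in WT mice fed a 40% HFD it was 1.77 ± 0.52. *Nsdhl* had -2.26 ± 0.23 and -0.43 ± 0.18, with a difference of 1.83 ± 0.31 (adjusted p = 0.0301 in limma), and *Mvd* and *Elovl6* differed as well. *Wt1* and *Upk1b* of the mesothelial list, *C2*, *Kdr*, *Esam*, *Dpp4*, *Npr1* and *Ap4e1* also differed, each with a larger effect in WT ND mice. *Mest*, *Sfrp5*, *Npr1* and *Ap4e1* were named for a large change or small p in these same NW and NWL libraries. That choice favours a smaller effect elsewhere. Without NW2, *Mest*, *Upk1b*, *Npr1* and *Ap4e1* kept an adjusted p under 0.05 in limma, and *Sfrp5* (0.0513), *Nsdhl* (0.0509), *Mvd* (0.0590), *Elovl6* (0.0516), *Wt1* (0.0519), *C2* (0.0526), *Kdr* (0.0542), *Esam* (0.0555) and *Dpp4* (0.0576) did not. In CCL19-KI ND mice, *Nsdhl* had an effect of 0.50 ± 0.37, *Wt1* of 0.28 ± 0.26 and *Npr1* of 0.06 ± 0.23, and these differences from WT ND mice had adjusted p of 0.0628, 0.0862 and 0.0637 in limma. The list medians, which were not tested against each other, were -1.29 in WT ND mice for fat expansion, 0.87 in WT mice fed a 40% HFD, -0.27 in WT mice fed a 60% HFD and 0.11 in CCL19-KI ND mice. For the mesothelial list they were 1.43, -0.60, 0.10 and 0.14 in the same order.

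**Figure D5:**
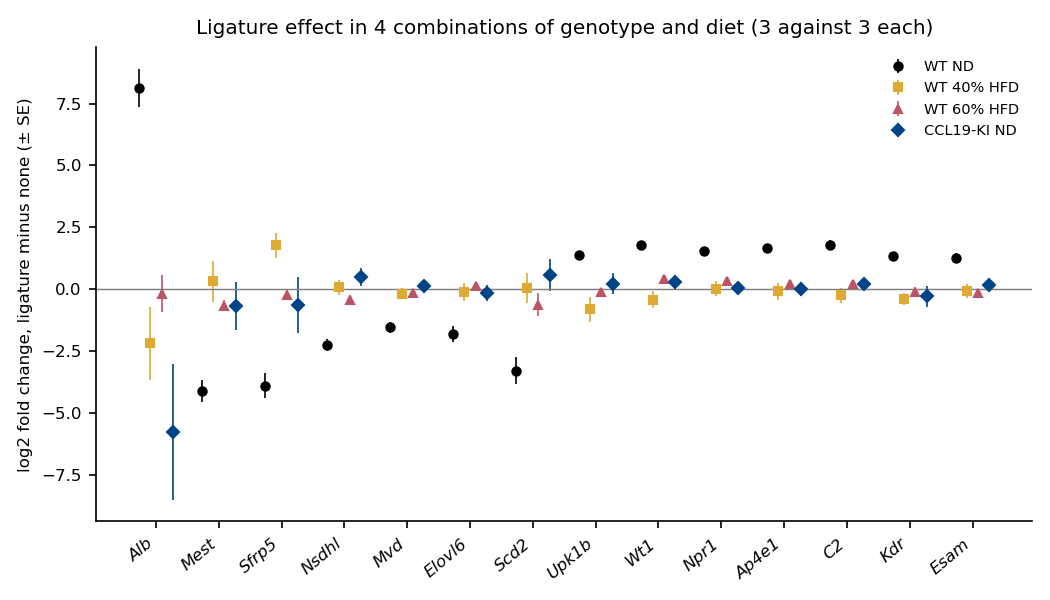
Log2 fold change (y axis, ligature minus none, ± SE) of 14 genes in WT ND, WT 40% HFD, WT 60% HFD and CCL19-KI ND mice, 3 against 3 in each; the 4 effects are from separate fits. All 14 genes were DEGs in WT ND mice, and *Mest* was -4.11 in WT ND mice and -0.67 in WT mice fed a 60% HFD.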

How the data were processed

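RNA-seq of eWAT was deposited as 1 table of 24750 genes in 36 libraries, each from 1 mouse, and all 36 columns were matched to samples by the labels. As stated by the authors, total RNA was depleted of rRNA and made into directional libraries, and paired-end reads were trimmed with Trimmomatic, aligned with Bowtie2 and counted with RSEM. The submitters' processing notes name Trimmomatic 0.38 and RSEM 1.3.0. The values deposited by the authors are a signal, CPM normalized with edgeR, and the lowest total of a gene is 36 reads. The genome build is given as mm10 in the methods and as GRCm39 in the labels, and gene positions here are from GENCODE M21 (GRCm38). In each library, 100% of values were whole multiples of 1 read within 0.01, so whole reads were recovered. Depth was 11962228 to 20258438 reads, which sets a floor of 0.150 to 0.232 normalized CPM for 3 reads and covers counting error only. Replicates differed beyond counting noise (chi-square per degree of freedom 23.7 to 151 over the 6 pairs), and p-values measure the spread between these mice.

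Genes reaching 1 normalized CPM in 3 or more of the 6 libraries were tested on log2(normalized CPM + 1) with limma 3.58.1 (R 4.3.3, empirical Bayes with a mean trend), and p-values were adjusted by Benjamini-Hochberg over all genes tested. Fold changes on this scale understate the change of low genes. The fit was repeated without NW2, and differences between ligature effects were tested as interactions over 12 libraries. A count test on the recovered reads (edgeR 4.0.16, quasi-likelihood) called 1537 genes higher and 1308 lower, and 538 by adjusted p. The pseudocount, filter, scaling, libraries in the fit and left-out libraries were varied. The fit with the hepatocyte level as a covariate and that of NWL3 alone were chosen after seeing the data. Named genes were the 10 DEGs of largest change in each direction that did not overlap and were DEGs without NW2, the 10 of smallest p, and members of 59 gene lists. A few genes are not reported here by name, and they count in the lists. Members and lists were chosen with earlier results of these data known. Promoters were read from RefSeq (GRCm38.p6). The fitting steps were checked on generated counts with known changes. Other steps used Python 3.11.15, pandas 2.3.3, numpy 2.4.6 and matplotlib 3.10.9.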

Additional observations from a re-analysis of the deposited data

Results flagged for a closer look

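For 38 named genes, the ligature effect in WT mice fed a 60% HFD differed from that in WT ND mice in a test of the difference itself (limma, adjusted p from 0.0175 to 0.0493). Liver genes made up most of them, and the differences on the log2 scale (60% HFD minus ND) were -9.04 for *Apob*, -8.34 for *Cyp3a11*, -8.31 for *Alb*, -8.14 for *Cps1*, -8.08 for *Mat1a*, -7.94 for *Serpina1c*, -7.83 for *Serpina1e*, -7.66 for *Mug1*, -7.65 for *Serpina3k*, -7.59 for *Apoa1*, -7.55 for *Mup20*, -7.37 for *Mup3*, -7.22 for *Apoa2*, -6.84 for *Ahsg*, -6.50 for *Mup14*, -6.44 for *Fgb*, -6.42 for *Mup7*, -6.31 for *Serpina1a*, -6.30 for *Ttr*, -6.03 for *Hpx* and -5.85 for *Fgg*. Genes that fell with ligature in WT ND mice and differed were *Sfrp5* (3.66), *Ltf* (3.66), *Mest* (3.45), *Elovl6* (1.91), *Nsdhl* (1.83), *Mvd* (1.40) and *Gpc1* (1.35). Genes that rose in WT ND mice and differed were *BB365896* (-2.67), *C2* (-1.56), *Upk1b* (-1.5), *Ap4e1* (-1.49), *Kdr* (-1.43), *Esam* (-1.41), *Wt1* (-1.38), *Dpp4* (-1.28), *Npr1* (-1.20) and *Oasl2* (-1.15). Without NW2, 20 of the 38 kept an adjusted p under 0.05 in limma. Over all genes tested, 127 of 15896 (0.799%) differed. Many of the 38, such as *Apob*, *Alb*, *Mest*, *Gpc1* and *Npr1*, were named for a large change or small p in WT ND mice. The test of the difference uses the same NW and NWL libraries, so that this choice favours a smaller effect elsewhere.

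For *Ltf*, lactoferrin, the effect in CCL19-KI ND mice also differed from that in WT ND mice, by 5.38 on the log2 scale (adjusted p = 0.0316 in limma), and by 4.94 without NW2 (adjusted p = 0.0464 in limma).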

How the results depend on the processing

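The count of DEGs without NW2 stayed at 2213 to 3893 under 16 alternatives. The count with 6 libraries, 2544, was 1655 with a pseudocount of 5, 722 for NWL3 alone against NW, and 1570 to 3258 when each library was left out. The count by adjusted p, 469, was less stable, at 282 with a pseudocount of 5, 214 with no filter, 1202 with all 36 libraries in the fit, 284 with the 12 ND libraries, 839 with the hepatocyte covariate, 0 for NWL3 alone (730 at an unadjusted p under 0.05), and 0 to 790 when each library was left out. Replicate numbers were not taken to pair the mice, since same-number correlations of deviations were -0.11, 0.11 and 0.17 and not every library correlated best with its own number. A replicate block gave 2594 DEGs and 123 genes by adjusted p.

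The effect in WT mice fed a 40% HFD differed for 294 genes with a pseudocount of 0.1, 7 with a filter at a mean of 5, 4 with median-of-ratios scaling, 47 with quantile normalization, 1 with edgeR and 438 with all 36 libraries, and for 0 to 150 when each library was left out. That in WT mice fed a 60% HFD, 127 genes, differed for 288 and 19 with pseudocounts of 0.1 and 5, 70 with no filter, 0 with the block, 358 with edgeR, 0 with all 36 libraries, and 0 to 669 when each library was left out. That in CCL19-KI mice, 12 genes, differed for 5 with a pseudocount of 5, 6 with no filter, 4 with quantile normalization, 0 with the block, 6 with edgeR, 1355 with all 36 libraries, and 0 to 45 when each library was left out.

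The medians of the hepatocyte, mesothelial, complement, fat expansion, cholesterol, lipogenesis, collagen, lipid-associated macrophage and proliferation lists kept their sign under every alternative run, whereas the acute-phase median ranged from -1.13 to 1.47, that of fatty acid oxidation from -1.06 to 0.21, that of adipocyte transcription factors from -0.35 to 0.43 and that of macrophages from -0.23 to 0.46. With the hepatocyte covariate they were -1.61 for cholesterol, -0.030 for collagens, -0.88 for fat expansion, 2.03 for mesothelial and 0.17 for hepatocyte genes. The median over all genes in that fit was -0.095, so the collagen median was not below it. The hepatocyte value follows from the covariate. For NWL3 alone the list medians were -0.53 for lipogenesis, 0.70 for complement, -0.079 for collagens, 1.24 for mesothelial and 4.11 for hepatocyte genes. When each library was left out, they were 0.092 to 0.54 for complement, -1.78 to -1.08 for fat expansion, 1.34 to 1.59 for mesothelial and 5.40 to 7.10 for hepatocyte genes. The hepatocyte median was also 8.52 and 5.06 with pseudocounts of 0.1 and 5, and 9.18 with edgeR. *Fgb* (-0.17) and *Mat1a* (-0.22) were below 0 with the covariate. Of the alternative values of named genes, 465 kept direction and call, and 24 kept direction and were no longer DEGs or past the adjusted threshold. The cause of these changes was not tested. At 3 mice a group, with liver transcripts, epididymal transcripts and genotype-tied genes unequal between libraries, the ligature and these differences cannot be told apart.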
